A study of Homo sapiens with 6 samples.

Results

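ATP-binding cassette (ABC) proteins share a nucleotide-binding domain that uses ATP, and most members couple it to membrane-spanning segments that move a substrate across a membrane. The family holds pumps that expel drugs and conjugated metabolites from the cell, exporters of phospholipid and sterol, carriers of the peroxisome and mitochondrion, and proteins of subfamilies E and F that have no membrane segments and act at the ribosome. In the intestinal epithelium the pumps ABCB1, ABCC2 and ABCG2 are known for limiting the uptake of drugs and plant compounds, isoflavone conjugates among them.

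Members were the rows of the expression table whose gene symbol is ABC, a subfamily letter from A to G and a number. This rule uses no measured value and found 39 genes among 30676. Pseudogenes and readthrough models carry longer symbols and were not taken, and TAP1 and TAP2, which belong to the family under other names, were counted with its partners. Of 46 symbols in the role lists, the rule found no row for ABCA6, ABCA9, ABCB4, ABCB5, ABCC12, ABCC13 and ABCG8, which were not analysed here.

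RNA was sequenced from HCT116, an established human colorectal cancer line labelled wild type, kept for 24 hours at 1% oxygen. One group of 3 libraries received GIA, named by the series title as a genistein isoflavonoid alkaloid, at 10 µM, and the other group of 3 received the vehicle DMSO at 0.1%. All 6 libraries were hypoxic, so they show GIA against vehicle under low oxygen and not the effect of oxygen itself, and whether the GIA libraries also held DMSO is not stated. Whether each library is a culture of its own is not stated, and the p-values below therefore reflect only how these samples scatter, possibly for technical reasons.

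Library totals ranged from 55725249 to 63542466 estimated counts with DMSO and from 64804849 to 67835059 with GIA. Every GIA library was thus deeper than every DMSO library, and the part of depth in the results was not tested. The defining epithelial markers were in part absent: EPCAM had 0.119 to 0.335 FPKM (fragment counts scaled for transcript length and sequencing depth), CDH1 at most 0.049 and VIL1 at most 0.0122. The keratins KRT8, KRT18 and KRT19 were present at means of 146, 255 and 27.7 FPKM, while 3 of 4 fibroblast markers found were also present, led by LUM at 157 to 197 FPKM. The summed fibroblast list had 166 to 183 FPKM with DMSO and 163 to 206 with GIA, and the epithelial list 434 to 440 and 381 to 451, so the groups overlapped in both lists. No row was found for the listed markers CDX2 (epithelial), COL1A2 (fibroblast), KDR (endothelial) and CD3E (leukocyte). The endothelial and leukocyte lists, with 2 genes found in each, each summed to under 0.2 FPKM in every library. These values go partly against the colorectal label, which is used below only as the name the submitters gave, and their part in the results was not tested. In bulk RNA, fewer cells of a type and less RNA per cell cannot be told apart.

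Mean levels in the family ran from 59.1 FPKM (ABCF1) down to genes at or near 0. A mean of at least 0.5 FPKM over the 6 libraries was required for testing, and 24 of the 39 members reached it, while 15 did not. This level was a chosen limit: the lowest tested member, ABCB9, had a mean of 0.735 FPKM. The highest untested member, ABCG1, had 0.378, with 137 to 226 estimated counts a library. Tested by role were 8 of 9 drug efflux pumps, 4 of 14 lipid, sterol and bile salt transporters, 2 of 3 peroxisomal, 4 of 4 mitochondrial, 4 of 4 non-transport and 2 of 5 other members. In all, the 39 genes made up 0.124% to 0.129% of the FPKM of a library. FPKM corrects for length, so these levels are set side by side between genes. It does not correct for how reads were split between overlapping gene models or pseudogenes.

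The sequence before the start of each gene was read from RefSeq (GRCh38.p14), to describe a feature that the rule did not use. This was the number of CG dinucleotides in the 250 bases before the start, taking the start richest in CG where a gene has several. A CG occurs in 93.9% of all such windows. A CG reads the same on the other strand, so each was counted once. A window was found for 31 members, and ABCA4, ABCA8, ABCC1, ABCC3, ABCC8 and ABCG1 were among those without one. The median was 26.5 CG in 20 tested members and 8 in 11 untested members, beside 23 over the 9447 tested genes with a window and 10 over the 4140 untested genes of the table with one. The 3 upstream sequences below, with each CG in capitals, are examples of expressed members: the most abundant member (ABCF1), a pump with a CG-rich start (ABCC4) and a pump with almost none (ABCC2). Each is given 5′ to 3′ on the strand of the gene and ends before the first annotated exon.
ABCF1, chr6:30571192-30571375, plus strand, 23 CG in 184 bases: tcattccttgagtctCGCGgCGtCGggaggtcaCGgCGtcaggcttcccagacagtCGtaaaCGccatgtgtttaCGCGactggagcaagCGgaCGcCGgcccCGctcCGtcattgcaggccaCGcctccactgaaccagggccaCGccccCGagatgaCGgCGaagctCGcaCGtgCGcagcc
ABCC4, chr13:95301476-95301701, minus strand, 37 CG in 226 bases: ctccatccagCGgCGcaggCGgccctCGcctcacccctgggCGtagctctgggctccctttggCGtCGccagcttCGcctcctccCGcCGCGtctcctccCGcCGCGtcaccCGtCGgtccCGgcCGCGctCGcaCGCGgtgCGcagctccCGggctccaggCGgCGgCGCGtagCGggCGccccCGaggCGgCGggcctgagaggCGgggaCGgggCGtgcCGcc
ABCC2, chr10:99782390-99782639, plus strand, 1 CG in 250 bases: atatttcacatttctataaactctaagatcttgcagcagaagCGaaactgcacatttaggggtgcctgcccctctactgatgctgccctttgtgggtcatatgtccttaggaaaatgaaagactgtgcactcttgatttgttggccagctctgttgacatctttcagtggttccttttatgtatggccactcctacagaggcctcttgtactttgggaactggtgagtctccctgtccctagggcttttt

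ABCC2 was the exception among the expressed members with a window. It was the only one of these 20 tested members with fewer than 5 CG in its richest window. That is 5% of them, near the 3.56% of tested genes in this class. Of the 11 untested members, 4 were in that class (ABCA10, ABCA12, ABCA13 and ABCB11, with 2 CG each), or 36.4%, beside 30.3% of the untested genes of the table. Other untested members had many more, among them ABCG4 with 25 CG, ABCC11 with 24 and ABCC6 with 22. ABCB1 held 1 and 12 in its 2 windows and ABCG2 between 2 and 32 in its 5 windows. Which of these starts the cells used was not measured.

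**Figure D1:**
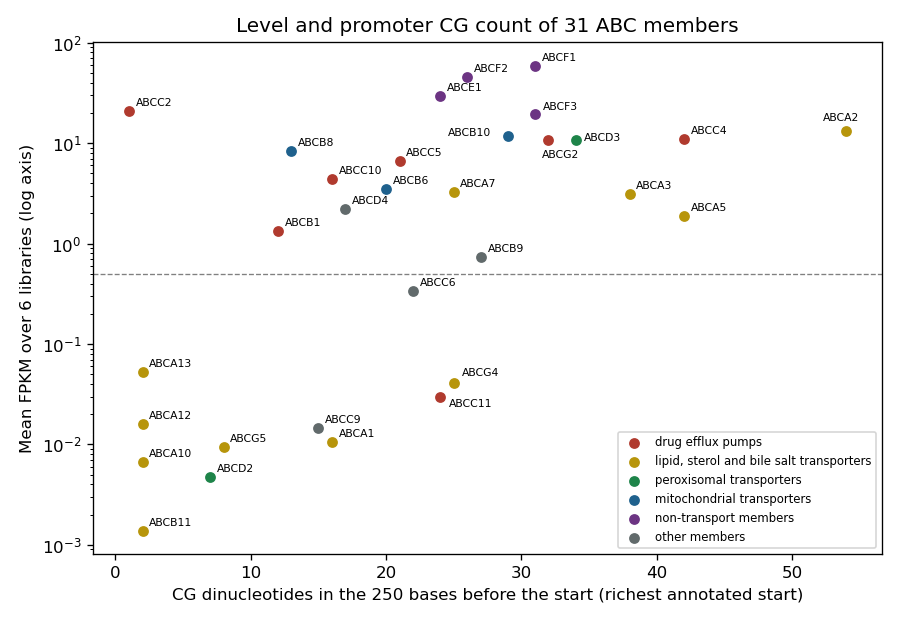
Mean FPKM over 6 libraries (log axis) against the number of CG dinucleotides in the 250 bases before the start, 1 point for each of 31 ABC members coloured by role; the dashed line marks the 0.5 FPKM needed for testing. ABCC2 lies alone at the upper left, with 1 CG and 20.9 FPKM, while the other members under 5 CG lie under 0.1 FPKM.

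The drug efflux pumps were led by 3 members of subfamily C rather than by the classical multidrug pump ABCB1. ABCC2, the apical exporter of glutathione, glucuronide and sulfate conjugates (chromosome 10, 99782640 to 99852044), had 20.0, 21.9 and 20.8 FPKM in DMSO libraries 1 to 3 and 22.3, 19.9 and 20.8 in GIA libraries 1 to 3. The highest and the lowest value both belonged to GIA libraries, so the groups overlapped. ABCC3, its basolateral counterpart, averaged 18.2 ± 0.678 FPKM in the DMSO group and 18.7 ± 0.591 in the GIA group (mean ± SD, n = 3, as for every ± below). ABCC1, the broad exporter of glutathione conjugates and anticancer drugs (chromosome 16, 15949577 to 16143074), had 13.8, 14.8 and 14.2 FPKM with DMSO and 14.95, 14.5 and 14.5 with GIA. Its groups overlapped, since DMSO library 2 lay above GIA libraries 2 and 3.

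ABCG2, the breast cancer resistance protein, which exports sulfated and glucuronidated plant compounds (chromosome 4, 88090150 to 88231628), had 10.4, 11.2 and 11.4 FPKM with DMSO and 11.3, 9.92 and 10.7 with GIA. Again a GIA library was lowest and the groups overlapped. ABCC4, an exporter of cyclic nucleotides and prostaglandins, stood at the same level, with 10.7 ± 0.366 and 11.1 ± 0.599 FPKM. ABCC5, which also exports cyclic nucleotides, had 6.71 ± 0.601 and 6.58 ± 0.141, and ABCC10, a pump of taxanes and other lipophilic drugs, 4.41 ± 0.0717 and 4.40 ± 0.172. These pumps form an order in which ABCC4 and ABCG2 do not differ beyond their spread, while each other step between neighbours exceeds it.

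ABCB1, which encodes P-glycoprotein (chromosome 7, 87503017 to 87713323), was the lowest of the 8 tested pumps. It had 1.59, 1.52 and 1.22 FPKM with DMSO and 1.31, 1.13 and 1.26 with GIA, from 539 to 627 estimated counts a library. DMSO libraries 1 and 2 lay above all GIA libraries, and DMSO library 3 lay within the GIA range. ABCC11 was at most 0.0657 FPKM and was not tested. Summed over the pumps, FPKM ranged from 84.7 in DMSO library 1 to 91.1 in GIA library 1, a 1.08-fold range over all 6 libraries.

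**Figure D2:**
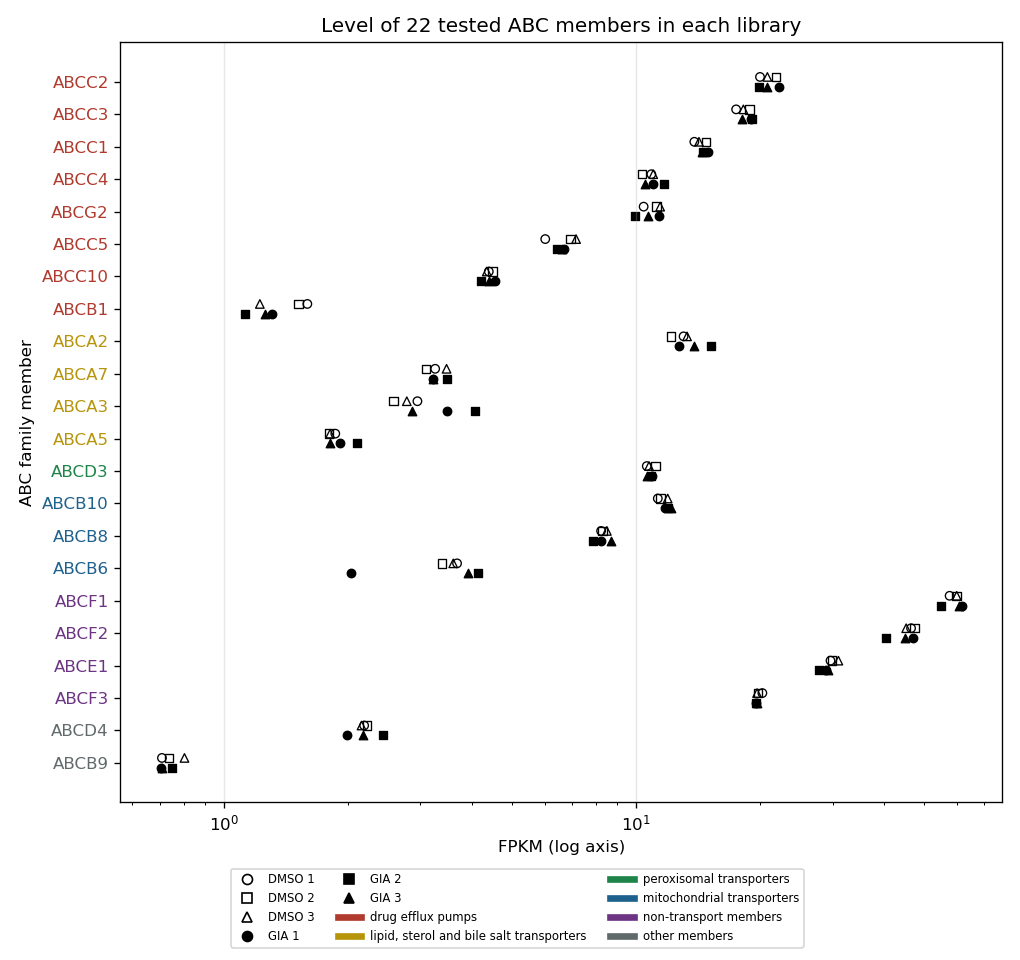
FPKM (log axis) of 22 tested ABC members in each library, with gene names coloured by role; open symbols are DMSO libraries and filled symbols GIA libraries, and circle, square and triangle stand for libraries 1, 2 and 3. Symbols of a gene lie close together for most members. The widest spreads are those of ABCB6 (2.03 to 4.13 FPKM), ABCA3 (2.58 to 4.07) and ABCB1 (1.13 to 1.59).

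Among lipid transporters, the 4 tested members all belonged to subfamily A, and the sterol exporters ABCA1, ABCG1, ABCG4 and ABCG5 lay under the level for testing. ABCA2, an endolysosomal protein of sterol and sphingolipid traffic (chromosome 9, 137007234 to 137028922), had 13.04, 12.2 and 13.3 FPKM with DMSO and 12.7, 15.2 and 13.9 with GIA. GIA library 2 was highest and GIA library 1 lay within the DMSO range. ABCA3, which loads phospholipid into lamellar bodies in the lung (chromosome 16, 2275881 to 2340746), had 2.95, 2.58 and 2.78 with DMSO and 3.48, 4.07 and 2.86 with GIA. GIA libraries 1 and 2 exceeded every DMSO library, and GIA library 3 did not, being below DMSO library 1. ABCA7, a phospholipid exporter, had 3.27 ± 0.189 and 3.31 ± 0.153 FPKM, and the lysosomal ABCA5 1.82 ± 0.0352 and 1.94 ± 0.152.

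ABCA1, the cholesterol and phospholipid exporter that forms nascent high-density lipoprotein, had at most 0.023 FPKM, and ABCG1, which passes sterol on to mature lipoprotein, 0.300 to 0.493. Both are textbook targets of the liver X receptors, whose genes NR1H3 and NR1H2 had means of 5.42 and 8.29 FPKM in these libraries. The bile salt export pump ABCB11 had 4 estimated counts in 1 library and none in 5, and so did ABCA8. ABCG5 was at 0 in 4 of 6 libraries and ABCA10 in 2. ABCA4, the retinoid carrier of photoreceptors, had 0.206 to 0.280 FPKM. The remaining untested members of this group (ABCA12, ABCA13 and ABCG4) stayed at or under 0.0819 FPKM.

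Of the peroxisomal and mitochondrial members described here, all but ABCD2 and ABCB6 were evenly expressed between libraries. ABCD3, a peroxisomal importer of branched-chain fatty acids and bile acid precursors, had 10.8 ± 0.276 FPKM with DMSO and 10.8 ± 0.179 with GIA. ABCD2, a peroxisomal importer of long-chain fatty acids, was at 0 in 4 of 6 libraries. ABCB10, an inner mitochondrial membrane protein of haem synthesis (chromosome 1, 229516582 to 229558707), had 11.3, 11.5 and 11.9 FPKM with DMSO and 11.7, 12.0 and 12.2 with GIA. Its groups overlapped, since DMSO library 3 lay above GIA library 1. ABCB8, a further protein of the inner mitochondrial membrane, had 8.34 ± 0.139 and 8.26 ± 0.418 FPKM.

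ABCB6, a porphyrin transporter of mitochondrial and other membranes (chromosome 2, 219209772 to 219218958), had the largest spread of the tested members, and it is singled out here after its values were seen. It had 3.68, 3.39 and 3.60 FPKM with DMSO and 2.03, 4.13 and 3.91 with GIA, so that GIA library 1 was low and the other 2 GIA libraries lay above all DMSO libraries. The table holds a second gene model on the same strand with the same first coordinate, ending at 219222738 and carrying no gene symbol. That model had 2.24, 3.26 and 2.202 FPKM with DMSO and 4.51, 2.67 and 2.64 with GIA, highest in the library where ABCB6 was lowest. In CPM (estimated counts scaled to library size), ABCB6 spanned a 2.02-fold range over the 6 libraries and the second model a 2.05-fold range, whereas their sum spanned 1.17-fold, from 33.3 to 38.9. The sum was 35.1 ± 2.63 with DMSO and 38.0 ± 0.754 with GIA. Its groups overlapped, since DMSO library 2 (38.1) lay above GIA libraries 1 and 3 (both 37.6).

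**Figure D3:**
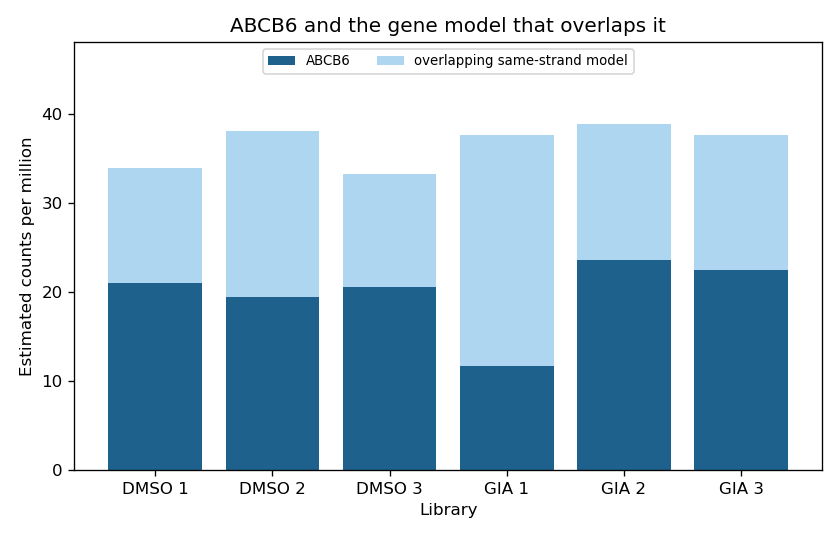
CPM in each library for ABCB6 (dark) and for the same-strand gene model that overlaps it (light), stacked. GIA library 1 has the smallest dark and the largest light part, and the summed bars lie between 33.3 and 38.9.

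ABCF2 has a like partner, the readthrough model ABCF2-H2BE1, but at so low a level that adding it moved little. The readthrough model had 0.131 to 1.16 FPKM, highest in GIA library 2, where ABCF2 was lowest. With both added, the summed CPM spanned a 1.16-fold range, against 1.17-fold for ABCF2 alone.

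Of the members without a transport role, ABCF1, ABCF2 and ABCE1 had the highest means of the family, and ABCF3 came after ABCC2. ABCF1, a translation initiation factor that associates with eIF2 (chromosome 6, 30571393 to 30597179), had 57.6, 59.9 and 60.0 FPKM with DMSO and 61.7, 54.9 and 60.7 with GIA. Its mean exceeded that of 95.5% of tested genes, and the groups overlapped, with GIA libraries both highest and lowest. ABCF2 had 46.3 ± 1.08 and 44.1 ± 3.34 FPKM. ABCE1, which splits the ribosome into subunits after termination (chromosome 4, 145098288 to 145129524), had 29.6, 29.9 and 30.97 with DMSO and 28.8, 27.7 and 29.2 with GIA, each GIA library below each DMSO library. ABCF3 had the smallest coefficient of variation of the tested members, 1.39%, with 19.9 ± 0.32 and 19.6 ± 0.0826 FPKM, and its groups also did not overlap, though the highest GIA value (19.65) and the lowest DMSO value (19.66) nearly met. Summed over ABCE1, ABCF1, ABCF2 and ABCF3, FPKM was lowest in GIA library 2, at 143, and 154 to 157 in the other 5 libraries.

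Of the other members, ABCD4, which exports cobalamin from the lysosome together with its partner LMBD1 (chromosome 14, 74285269 to 74303055), had 2.19, 2.23 and 2.16 FPKM with DMSO and 1.99, 2.44 and 2.18 with GIA. The GIA values straddled the DMSO values. ABCB9, a lysosomal peptide transporter (chromosome 12, 122920951 to 122975205), had 0.708, 0.737 and 0.803 with DMSO and 0.702, 0.751 and 0.709 with GIA, again overlapping. ABCC6, a liver protein linked to ATP release and calcification, had 0.239 to 0.436 FPKM, and the table also lists its pseudogenes ABCC6P1 and ABCC6P2, with which any sharing of reads was not tested. ABCC8 and ABCC9, the sulfonylurea receptor subunits of potassium channels, had at most 0.0176 and 0.0242 FPKM.

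Several members lie within 500 kb of each other on a chromosome, and some of these pairs differ widely in level. Whether other genes lie between them was not examined. ABCC1 and ABCC6 converge on chromosome 16 with 5853 bases between their ends, and the mean FPKM of ABCC1 was 43.4-fold that of ABCC6. On chromosome 1, ABCA4 and ABCD3 lie 297 kb apart, with a 44.3-fold difference in favour of ABCD3. On chromosome 17, ABCA10 and ABCA5 lie 15.6 kb apart, and only ABCA5 reached the level for testing. ABCC5 and ABCF3 on chromosome 3, and ABCB8 and ABCF2 on chromosome 7, are pairs in which both members were expressed, 2.97-fold and 5.45-fold apart.

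No ABC member passed the test between GIA and DMSO. The test was edgeR's quasi-likelihood test on estimated counts with a Benjamini-Hochberg adjusted p under 0.05 over all 13721 genes tested, and it called 0 of the 24 members, 0 higher and 0 lower, against 0% of all genes. At an unadjusted p under 0.05 there was 1 member, ABCA3, of 24, higher with GIA, against 4.59% of all genes, 2.65% higher and 1.95% lower. Leaving out DMSO library 2 or GIA library 2 brought that count to 0, and leaving out GIA library 1 brought it to 3, or 12.5% of members, where the share of all genes was 10.3%. DESeq2 and limma also called 0 members and 0 genes in all, with 1 member each at an unadjusted p under 0.05 and with 651 and 670 genes. Groups did not overlap for 2 members, ABCE1 and ABCF3, both lower with GIA, against 11.2% of all genes not overlapping in either direction and 5.6% lower. The share of members is close to this background.

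The intervals of single members bound the size of a difference between these samples. The fold changes, on the log2 scale and GIA over DMSO, had a median of -0.0061 over the 24 members, 10 positive and 14 negative, beside 0.00038 over all genes tested. For 23 of 24 members both ends of the 95% interval were less than 1.5-fold from no difference, against 83.0% of all tested genes. The exception was ABCA3, whose upper end was 1.501-fold, and ABCB6 and ABCB1 had the next widest reach. No correction for the number of genes was made in these intervals. The share over all tested genes was not matched to the members on level or counts. A mean of at least 5 FPKM was reached by 16 of the 24 members, against 7006 of the 13721 genes tested.

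By role, the 8 pumps had a median log2 fold change of -0.00043, 4 positive and 4 negative. ABCB1, with 1.45 ± 0.196 FPKM in the DMSO group and 1.23 ± 0.0943 in the GIA group, had -0.23 (SE 0.13, interval -0.52 to 0.06, adjusted p = 0.875), so that a level 1.43-fold lower with GIA lay within its interval. Leaving out DMSO library 3 gave -0.34, and leaving out DMSO library 1 gave -0.15. The other 7 pumps lay between -0.05 for ABCG2 (SE 0.06, interval -0.19 to 0.08) and 0.04 for ABCC3 and ABCC4, with ABCC5 at -0.03 and ABCC10 at -0.0059. Group means were 11.03 ± 0.529 and 10.7 ± 0.708 FPKM for ABCG2. ABCC1, with 14.3 ± 0.472 and 14.7 ± 0.265 FPKM, stood at 0.03 on that scale (SE 0.04, interval -0.05 to 0.12), and ABCC2, with 20.9 ± 0.948 and 20.997 ± 1.18, at 0.0051 (SE 0.05). For ABCG2 a change beyond 1.14-fold lower or 1.06-fold higher was outside the interval, and for ABCC2 one beyond 1.08-fold lower or 1.09-fold higher.

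All 4 tested lipid transporters had positive fold changes, with a median of 0.10, and none passed. Leaving out GIA library 2 gave a median of 0.04. ABCA3, with 2.77 ± 0.183 FPKM in the DMSO group and 3.47 ± 0.604 in the GIA group, had 0.32 (SE 0.12, interval 0.06 to 0.59, adjusted p = 0.875), with 0.20 without GIA library 2 and 0.44 without GIA library 3. ABCA2, with 12.8 ± 0.597 and 13.9 ± 1.24, had 0.11 (SE 0.06, interval -0.03 to 0.25), with 0.05 without GIA library 2 and 0.17 without GIA library 1. ABCA5 had 0.09, with 0.03 without GIA library 2, and ABCA7 had 0.01, with -0.023 without it. GIA library 2 held the highest value of all 4 of these genes. Of the 4 fibroblast markers found, LUM (197 FPKM), PDGFRB (5.38) and COL1A1 (3.17) were also highest there, and the summed level was 206. COL3A1 was near 0 throughout, with 0.0077 FPKM there and 0 in the other 5 libraries. Over all tested genes, GIA library 2 held the highest value of 29.6% and the lowest of 23.9%. The epithelial markers KRT8 and KRT18 were lowest there, at 134 and 219 FPKM, and the summed epithelial level, made up mostly of these 2, was 381. The rest of the epithelial list did not share this. KRT19 had 27.7 FPKM there and was lowest in DMSO library 2, at 26.2. EPCAM had 0.294 there and was lowest in GIA library 3, at 0.119. CDH1 was lowest in GIA library 1, and VIL1 was at 0 in all 3 GIA libraries and in DMSO library 2. The part of these markers in the lipid group's values was not tested.

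The 4 non-transport members all had negative fold changes, with a median of -0.05, and none passed. Leaving out GIA library 2 gave a median of -0.01 and a positive value, 0.05, for ABCF1. ABCE1, with 30.2 ± 0.704 FPKM in the DMSO group and 28.6 ± 0.776 in the GIA group, had -0.08 (SE 0.04, interval -0.16 to 0.0050, adjusted p = 0.875) and stayed between -0.10 and -0.05 with any 1 library left out. ABCF2 had -0.07 (SE 0.06), with -0.0092 without GIA library 2, ABCF3 -0.03 and ABCF1, with 59.2 ± 1.33 and 59.1 ± 3.699, -0.0034.

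The peroxisomal ABCD3 had -0.0063 (SE 0.04). Of the mitochondrial members, ABCB10 (11.6 ± 0.332 and 12.0 ± 0.214) had 0.05 (SE 0.04) and ABCB8 -0.02. None of these passed the test. ABCB6 (3.56 ± 0.152 and 3.36 ± 1.15) had -0.09 (SE 0.22, interval -0.58 to 0.41), and 0.17 without GIA library 1. With the overlapping model summed, its value was 0.11 (SE 0.06, interval -0.03 to 0.26, adjusted p = 0.874), a change of sign with a smaller standard error. ABCD4 (2.19 ± 0.035 and 2.203 ± 0.226) had 0.0013 and ABCB9 (0.749 ± 0.0487 and 0.721 ± 0.0263) -0.06.

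**Figure D4:**
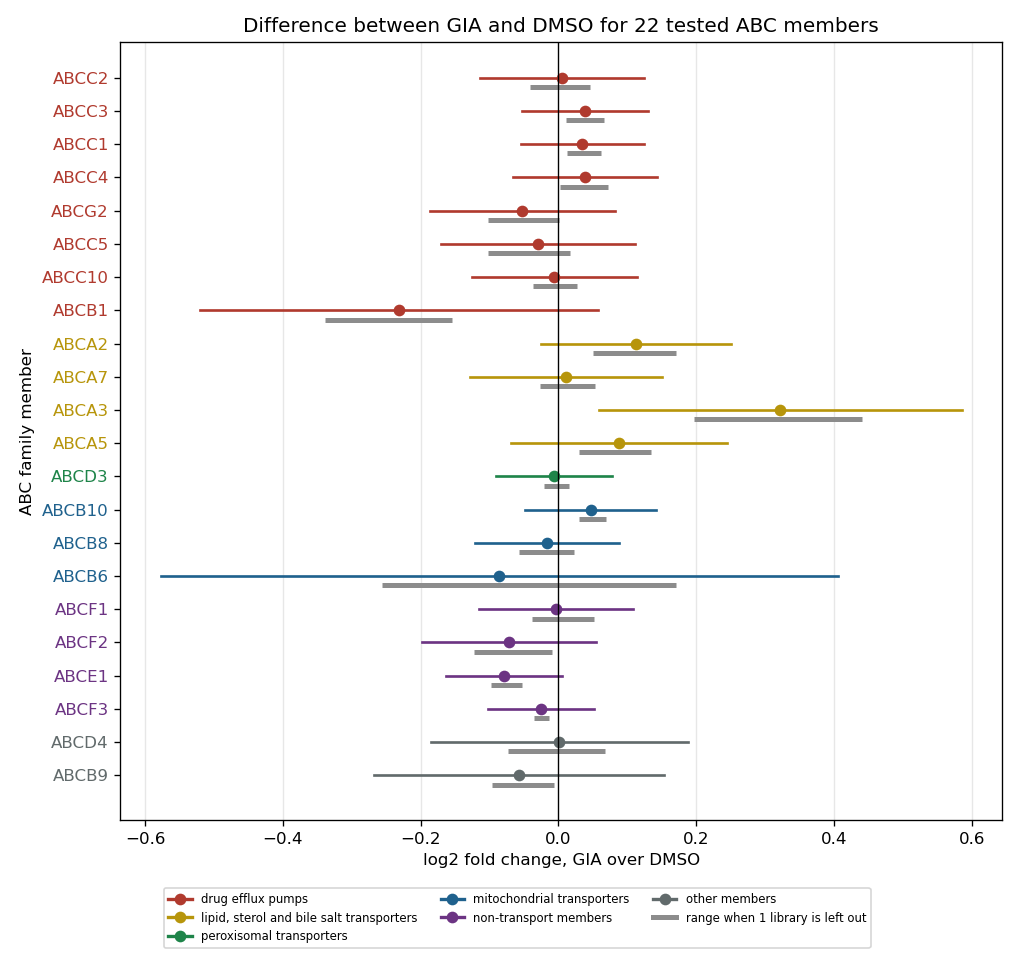
Log2 fold change, GIA over DMSO, of 22 tested ABC members with 95% intervals, coloured by role, and in grey the range of the value when any 1 library is left out. Of those shown, ABCA3 alone has an interval that leaves out 0, before adjustment for the number of genes, and ABCB6 has the widest interval.

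Most members varied little between libraries. For the 16 members with a mean of at least 5 FPKM the median coefficient of variation over 6 libraries was 3.84%, and the highest 7.84%. The median over the 7006 genes of that level was 4.42%. For the 8 lower members the median was 6.43%, beside 10.99% over 6715 genes. Of these 8, ABCB6 (21.5%), ABCA3 (17.7%) and ABCB1 (13.5%) lay above 10.99% and the others below it. These backgrounds were matched on FPKM and not on counts, and a longer transcript has more counts at the same FPKM. ABCA5, for example, had 1476 to 2060 estimated counts at a mean of 1.88 FPKM. The part of counts in these differences was not tested. GIA library 2 was the most frequent extreme: it held the highest value of 8 and the lowest of 10 of the 24 members. Over all tested genes it held the highest value of 29.6% and the lowest of 23.9%. Leaving it out changed the sign of 6 members, while leaving out any other library changed 1 to 4.

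Partners and regulators of the family were taken from a list of 30 genes, of which 26 were tested. By edgeR 0 were called higher and 0 lower, and 2 of the 26 had an unadjusted p under 0.05, where the share over all genes tested was 4.59% (0% called). The median log2 fold change was -0.03, with 8 positive and 18 negative. The smallest p belonged to RXRB, a retinoid X receptor that pairs with the liver X receptors, with 17.0 ± 0.376 FPKM and 18.5 ± 0.45, a log2 fold change of 0.12 (SE 0.04, adjusted p = 0.875). EIF2S1, the alpha subunit of eIF2, came next with 26.6 ± 1.19 and 24.8 ± 0.276, a log2 fold change of -0.11 (SE 0.04, adjusted p = 0.875). Groups did not overlap for 6 of the 26, where the share over all tested genes was 11.2%. TAP1 and TAP2, the peptide transporter of antigen presentation and thus family members, had means of 15.1 and 22.9 FPKM and log2 fold changes of -0.05 and -0.08. NR1I2, the xenobiotic receptor known to induce ABCB1 and ABCC2, had a mean of 0.0017 FPKM. TAP1, TAP2, NR1H2, NR1H3 and NR1I2 were named after their values were seen.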

How the data were processed

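The deposited table holds an estimated count and an FPKM value per gene and library, per the file headers, and the tools named in the submitters' processing notes, with no role or order, include StringTie 2.1.6 and HISAT2 2.2.1, beside the builds hg38 and GRCh38. No source used here gives the counting step. Low counts were most frequent at 4 (6798 values, against 4183 at 3 and 2499 at 5), so 1 fragment may be worth about 4 of the authors' estimated counts. The counts were already whole. Columns were matched to libraries by their titles.

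Counts were tested with edgeR 4.0.16 in R 4.3.3 (quasi-likelihood, TMM scaling, two-sided, no covariate) for genes whose FPKM averaged 0.5 or more over all libraries, and the test was tried on simulated data. Alternatives were DESeq2 1.42.0, limma 3.58.1 on log2 FPKM, other scaling and filters, counts divided by 4, a replicate block and leaving out each library. Summing overlapping models was added after the data were seen. Tested members are named, apart from 2 that are not reported here and were counted but not shown, with library values for ABCB1, ABCC1, ABCG2 and, in each role, the member of highest mean and that of smallest p. The members, role lists and this rule were chosen with earlier results of these data known. Protein features were planned and not run. Coordinates of genes are the table's.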

Additional observations from a re-analysis of the deposited data

How the results depend on the processing

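No ABC member was called under any alternative tried, and the smallest adjusted p of a member in any of them was 0.465 (ABCA2 without GIA library 1). Over all genes, the count of calls was 0 with all 6 libraries and 3 with the replicate block, none of them an ABC member, and 0 to 3 with 1 library left out. The deviations of libraries with the same number correlated at 0.052, 0.033 and 0.097, so the numbers were not taken as pairs. Genes with a p below 0.05 before adjustment numbered 630 with all libraries, 407 when DMSO library 2 was left out and 1408 when GIA library 1 was. The median log2 fold change of the members lay between -0.023 and 0.0015 with 1 library left out. Signs of values near 0 were not stable. A mean FPKM of at least 5 gave 0.0028 for ABCD3 and 0.0053 for ABCF1, the replicate block gave -0.0028 for ABCD4, and summing the overlapping models gave 0.11 for ABCB6. With 1 library left out, 14 of 24 members kept their sign. The others ranged from -0.027 to 0.054 (ABCA7), -0.26 to 0.17 (ABCB6), -0.057 to 0.023 (ABCB8), -0.036 to 0.027 (ABCC10), -0.042 to 0.046 (ABCC2), -0.10 to 0.017 (ABCC5), -0.021 to 0.016 (ABCD3), -0.073 to 0.067 (ABCD4), -0.039 to 0.051 (ABCF1) and -0.10 to 2.7e-05 (ABCG2). With no filter the median of the lipid group, then of 14 genes, was -0.19 in place of 0.10. The 10 genes that entered ranged from ABCB11, with at most 4 estimated counts a library, to ABCG1, with 137 to 226. The cause of these sign changes was not tested, and the sum for ABCB6 was added after its values were seen.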
